A study of Homo sapiens with 2 samples.

Results

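The genes described here are 8 genes known as targets of androgen signalling or as markers of the luminal cells of the prostate: TMPRSS2, FKBP5, FOLH1, STEAP2, SLC45A3, FOXA1, ACP3 (formerly ACPP) and TRPM8. They are a list of names to which no threshold on counts was applied, though earlier results of these data were known when it was made, and are 8 of the 64081 genes in the table and of its 19404 protein-coding genes with a gene model. The genes on the strand opposite to each of the 8 were read beside them. The only group was LNCaP, an androgen-sensitive line of prostate carcinoma cells, in RPMI-1640 with 10 mM HEPES, whose serum was replaced by 10% charcoal stripped FBS, that is, serum depleted of androgen, for 48 h before RNA extraction. Strand-oriented paired-end libraries were made from the poly(A)+ fraction of 2 biological replicates, and the authors deposited the read pairs of both in 1 column. No value below therefore has a replicate error, and there is no androgen-treated group with which these cells could be compared. All intervals are exact 95% intervals (Poisson for counts, binomial for shares) and cover counting error only.

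Steroid hormones such as androgens act through nuclear receptors, which chaperones hold ready to bind the hormone and which then bind DNA at hormone response elements. They often do so beside FOXA1, a pioneer factor that opens chromatin for them. In luminal cells of the prostate the genes induced by androgen include secreted enzymes, proteases and transporters, and many of them are used as markers of prostate cancer.

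The strand to which each count belongs decides what the counts of these genes can show. For the LNCaP reads the study's methods name the TopHat library type fr-secondstrand, meaning that read 1 runs in the same direction as the RNA. For strand-specific paired-end data they name the reverse mode of htseq-count, which credits a gene only with pairs whose read 1 runs against it. If both held for this table, pairs credited to a gene were transcribed from the other strand of its locus, and pairs from a messenger RNA appear only where an annotated gene lies opposite to it. Each count below is therefore called a listed count and is not read as a level of the messenger RNA. In total, 9495309 pairs were listed on genes, 6.39% of the uniquely placed pairs, and 1 pair corresponded to 0.105 CPM, the count scaled to the total on genes. The 8 genes held 1079 of these pairs, of which FOXA1 held 66.5%.

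The sequences that follow are those at which the strand matters for 3 of the 8 genes, FOXA1, TMPRSS2 and TRPM8, whose exons share nucleotides with exons of a listed gene on the opposite strand. FOXA1 lies on the minus strand of chromosome 14 (chr14:38058757-38065264, GRCh37) head to head with TTC6 (chr14:38064834-38510647), and their exons share 16 nt of non-coding exon (chr14:38065198-38065213), printed on the strand of FOXA1 in capitals between 7 nt on either side that lie outside the shared part.
FOXA1 and TTC6, shared exon: gactcacCTGCTCTTAGCCGCAGgtacgag

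TRPM8 lies on the plus strand of chromosome 2 (chr2:234826018-234928166, GRCh37), and the lncRNA gene ENSG00000237581 lies inside it on the minus strand (chr2:234854790-234864079). Their exons share 119 nt (chr2:234863776-234863894), which are coding in TRPM8 and part of the 594 exonic nt of the lncRNA gene, printed on the strand of TRPM8.
TRPM8 and ENSG00000237581, shared exon: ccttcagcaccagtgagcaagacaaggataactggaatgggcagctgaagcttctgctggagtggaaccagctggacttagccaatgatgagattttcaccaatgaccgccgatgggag

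TMPRSS2 lies on the minus strand of chromosome 21 (chr21:42836227-42903043, GRCh37), tail to tail with MX1 (chr21:42791947-42841998). The exons of both, over all annotated isoforms, share 562 nt in 2 blocks, of which the 2 stretches below (chr21:42840323-42840465 and chr21:42840225-42840283) are coding in TMPRSS2. They are printed on the strand of TMPRSS2.
TMPRSS2 and MX1, first stretch: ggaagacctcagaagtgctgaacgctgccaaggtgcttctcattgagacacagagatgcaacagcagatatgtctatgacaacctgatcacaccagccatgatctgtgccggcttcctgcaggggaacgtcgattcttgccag
TMPRSS2 and MX1, second stretch: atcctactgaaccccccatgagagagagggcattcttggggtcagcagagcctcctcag

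**Figure D1:**
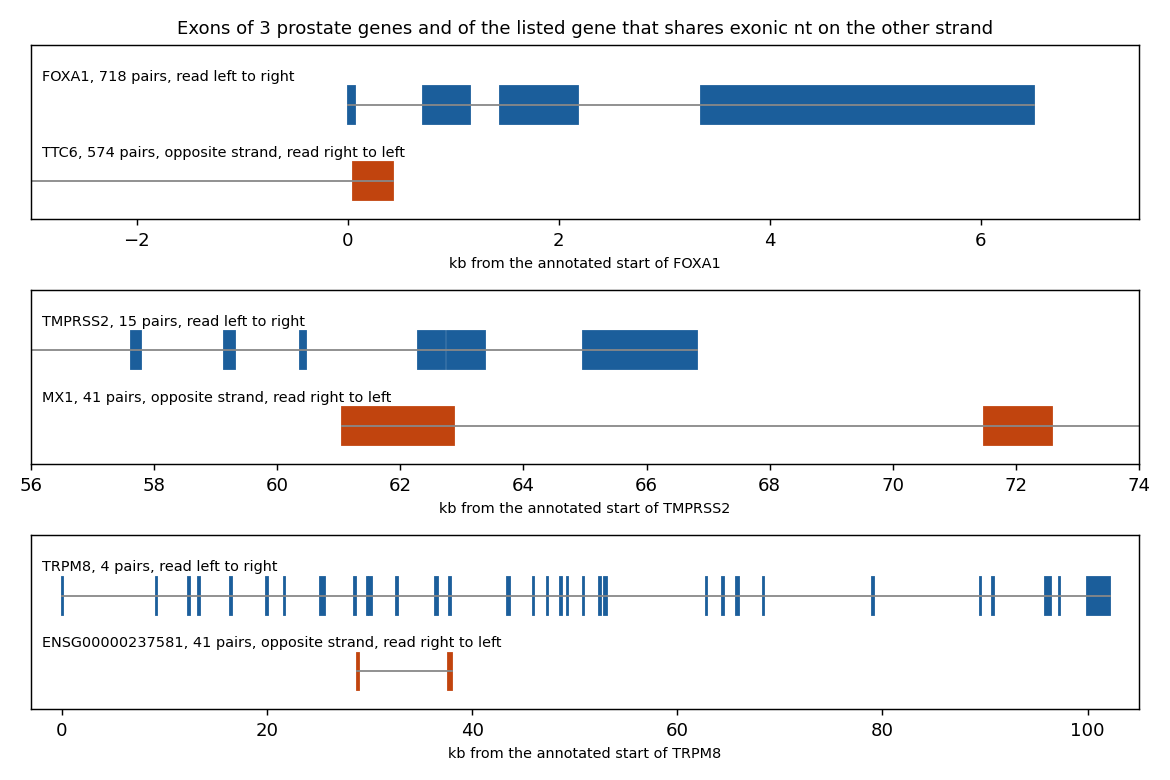
Exons (boxes) of FOXA1, TMPRSS2 and TRPM8 in blue and of the listed gene on the opposite strand in orange, against the distance in kb from the annotated start of the prostate gene. The overlap lies at the first exon of FOXA1, near the end of TMPRSS2 and on an internal exon of TRPM8, and the listed pairs are 718 against 574, 15 against 41, and 4 against 41.

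FOXA1, the pioneer factor, had the highest listed count of the 8 genes and TRPM8 and ACP3 the lowest. The listed count of FOXA1 was 718 (interval 666.4 to 772.5), which is 75.6 CPM. STEAP2, a metalloreductase of the membrane, had 105 pairs (85.9 to 127.1), and SLC45A3, a solute carrier known as prostein, had 100 pairs (81.4 to 121.6). FKBP5, an immunophilin that works with HSP90 on steroid receptors and is induced by androgen, had 84 pairs (67.0 to 104.0). These 3 genes lay within counting error of one another in listed pairs.

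FOLH1, which encodes the prostate-specific membrane antigen, had 50 pairs (37.1 to 65.9). TMPRSS2, a serine protease of the cell surface that is induced by androgen, had 15 pairs (8.40 to 24.7). TRPM8, the cold and menthol channel, had 4 pairs (1.09 to 10.2), and ACP3, the prostatic acid phosphatase of the seminal fluid, had 3 pairs (0.619 to 8.77). The counts of the last 2 genes cannot be told apart at this depth.

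**Figure D2:**
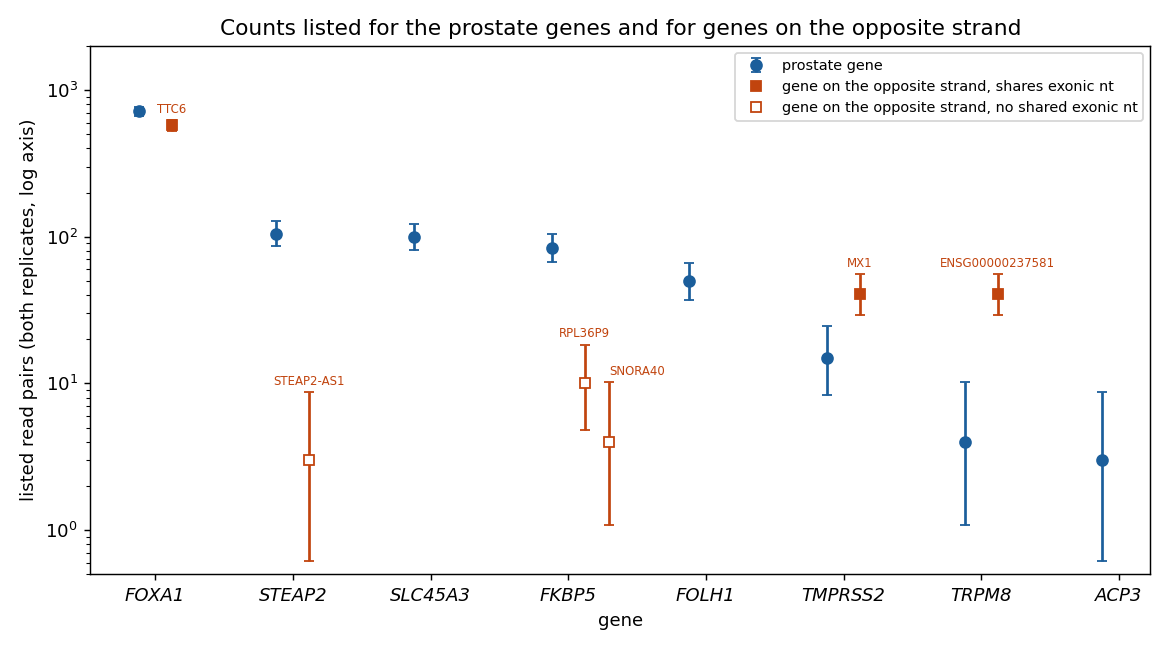
Listed read pairs of both replicates together (log axis) for the 8 prostate genes (blue circles) and for each listed gene on the opposite strand of their gene bodies (orange squares, filled where exons share nucleotides). Bars are exact 95% Poisson intervals, and MX1 and ENSG00000237581 lie above TMPRSS2 and TRPM8, while TTC6, STEAP2-AS1, RPL36P9 and SNORA40 lie below their partners.

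Each of the 8 genes had at least 1 pair, as had 73.7% of all protein-coding genes. A minimum of 10 pairs was reached by 6 of the 8 genes. Among the 19404 protein-coding genes 44.2% reached it, and the same 6 genes lay above the median of 6 pairs of all protein-coding genes. The median of the 8 genes was 67 pairs. Protein-coding genes whose exons share nucleotides with exons of a listed gene on the opposite strand had higher listed counts, with a median of 26 pairs in 6465 genes against 3 pairs in 12939 genes without such exons, and 65.3% against 33.7% of them reached 10 pairs. The 8 genes showed the opposite order, with a median of 84 pairs in the 5 genes without such exons and 15 in the 3 genes with them, a description of few genes. The share of genes with such exons was 3 of 8, beside 33.3% of all protein-coding genes.

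FKBP5, FOLH1, STEAP2, SLC45A3 and ACP3 share no exonic nucleotide with a listed gene on the opposite strand, and 4 of these 5 genes reached 10 pairs. STEAP2 lay above 94.4% of the protein-coding genes of this class, SLC45A3 above 94.1%, FKBP5 above 93.0% and FOLH1 above 88.8%, whereas ACP3 lay above 48.3%. Of the 3 genes with shared exonic nucleotides, FOXA1 lay above 92.8% of the genes of that class, TMPRSS2 above 40.5% and TRPM8 above 23.8%.

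**Figure D3:**
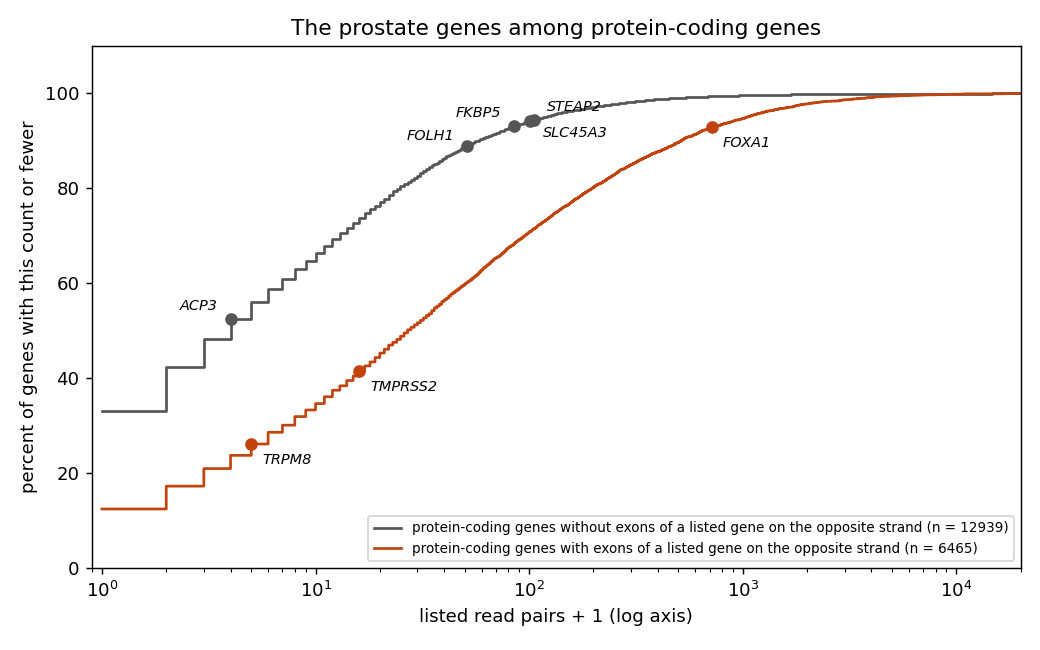
Cumulative share of protein-coding genes (percent, vertical axis) by listed read pairs plus 1 (log axis), for genes without (grey) and with (orange) exons of a listed gene on the opposite strand, with each of the 8 prostate genes marked on the curve of its class. STEAP2, SLC45A3, FKBP5 and FOLH1 lie near the top of the grey curve and ACP3 near its middle, while TMPRSS2 and TRPM8 lie in the lower part of the orange curve.

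Since longer genes collect more pairs, the genes were ordered by listed pairs per kb of exon. FOXA1 had 162.7 pairs per kb, 6.10 times the value of SLC45A3 (interval of the ratio 4.95 to 7.60), which had 26.7. SLC45A3 in turn had 2.21 times the value of STEAP2 (1.67 to 2.94), which had 12.0. STEAP2, FOLH1 (9.37) and FKBP5 (7.90) followed in this order, and neither step exceeded counting error, with ratios of 1.28 (0.909 to 1.84) and 1.19 (0.818 to 1.70).

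FKBP5 had 3.47 times the value of TMPRSS2 (1.99 to 6.48), which had 2.28 pairs per kb. ACP3 (0.700) and TRPM8 (0.505) closed the order. The steps from TMPRSS2 to ACP3 and from ACP3 to TRPM8 were within counting error, since ratios of 3.25 (0.920 to 17.5) and 1.39 (0.203 to 8.20) were found. The median of the 8 genes was 8.64 pairs per kb, and that of all protein-coding genes was 1.22.

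The opposite strand was then read gene by gene. Of the 8 genes, 5 have a listed gene on the opposite strand within their gene body, where 51.6% of all protein-coding genes do, and these are 6 genes in all. FOLH1, SLC45A3 and ACP3 have none. Genes with XLOC identifiers have no position here and were left out of this search, and the table may rest on gene models that differ from the reference annotation.

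At TRPM8 the listed count lay almost wholly on the opposite gene. ENSG00000237581 had 41 pairs (29.4 to 55.6) where TRPM8 had 4, so that TRPM8 held 8.89% of the sum (2.48% to 21.2%). Per kb of exon the lncRNA gene had 69.0 pairs and TRPM8 0.505. Under the settings named, the pairs of ENSG00000237581 come from the strand of TRPM8 and may lie on the shared coding exon or on the rest of the lncRNA exons, which lie in introns of TRPM8. The table gives 1 count for all exons of a gene, so the position of these pairs was not tested.

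At TMPRSS2 the opposite gene was likewise the higher one. MX1, an interferon-induced GTPase, had 41 pairs (29.4 to 55.6) and TMPRSS2 15, which was 26.8% of the sum (15.8% to 40.3%). Because the exons of MX1 span 17984 nt over all isoforms, both genes had the same level per kb, 2.28. TMPRSS2 and TRPM8 were thus listed below their opposite gene, 2 of the 3 genes with shared exonic nucleotides. Of all protein-coding genes with such exons, 56.6% were listed below the opposite gene of highest count. By overlap of gene bodies it was 2 of 5 genes, beside 54.8% of all protein-coding genes with such a gene.

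FOXA1 was the exception among the 3. TTC6, a gene with tetratricopeptide repeats, had 574 pairs (528.0 to 622.9), and FOXA1 held 55.6% of the sum (52.8% to 58.3%), or 2.44 times the pairs of TTC6 per kb of exon. Both genes thus carried listed pairs in number. The gene bodies overlap by 431 nt only, and most of the 8602 exonic nt of TTC6 lie outside FOXA1. Each gene has 1 count for all its exons, so the position of the 574 pairs was not tested. Under the settings, the 718 pairs listed for FOXA1 come from the strand of TTC6 and the 574 pairs listed for TTC6 from the strand of FOXA1. The first exon of TTC6 extends past the 16 shared nucleotides into the first intron of FOXA1.

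At STEAP2 (chr7:89796904-89867451, plus strand) the lncRNA gene STEAP2-AS1 overlaps the first 44046 nt of the gene body on the minus strand. It shares no exonic nucleotide with STEAP2 and lies mostly before the start of STEAP2. STEAP2-AS1 had 3 pairs (0.619 to 8.77), and STEAP2 held 97.2% of the sum (92.1% to 99.4%). At FKBP5 (chr6:35541362-35696360, minus strand) the ribosomal protein pseudogene RPL36P9 had 10 pairs (4.80 to 18.4) and the small nucleolar RNA gene SNORA40 had 4 (1.09 to 10.2), both in introns. FKBP5 held 89.4% of its sum with RPL36P9 (81.3% to 94.8%). Per kb of exon RPL36P9 had 32.6 pairs and FKBP5 7.90, but RPL36P9 and SNORA40 are short and their counts of 10 and 4 are imprecise.

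FOLH1 (chr11:49166644-49230190, minus strand) has a near copy elsewhere on the chromosome, FOLH1B (chr11:89372405-89431767). The longest transcript of FOLH1 was 98.7% identical to a transcript of this pseudogene over 2135 aligned nt. A lncRNA entry of the same name was 98.5% identical over 1737 nt and has no count. The FOLH1B pseudogene was listed at 0, which allows up to 3 pairs. Pairs that could not be placed uniquely were not counted on FOLH1 or its copies, so the 50 pairs of FOLH1 are uncertain. With a minimum of 90% identity over 500 nt, no other gene among the 8 had a copy.

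Promoters were compared because FOXA1 and TTC6 start head to head. RefSeq gives windows of 300 nt (250 before and 50 after the start, GRCh38.p14) for 6 of the 8 genes, 13 windows in all. Those of FOXA1 (chr14:37595200-37595499, minus strand) and TTC6 (chr14:37595379-37595678, plus strand) share 121 nt, which are in capitals below, each window on the strand of its gene. RefSeq starts can differ from the outermost annotated starts used above. The 16 nt shared by exons of FOXA1 and TTC6 lie in neither window. A window of TRPM8 (chr2:233917123-233917422, plus strand), a gene with few listed pairs, follows with the letters TATAAA in capitals. No other window of TRPM8 has TATAAA or TTTATA.
FOXA1: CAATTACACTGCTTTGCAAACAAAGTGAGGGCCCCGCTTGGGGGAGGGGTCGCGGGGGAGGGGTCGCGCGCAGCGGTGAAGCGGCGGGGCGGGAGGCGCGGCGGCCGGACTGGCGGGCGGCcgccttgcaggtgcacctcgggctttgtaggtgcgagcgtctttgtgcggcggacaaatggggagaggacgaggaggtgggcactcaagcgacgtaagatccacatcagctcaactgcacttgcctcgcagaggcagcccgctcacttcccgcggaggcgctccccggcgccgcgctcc
TTC6: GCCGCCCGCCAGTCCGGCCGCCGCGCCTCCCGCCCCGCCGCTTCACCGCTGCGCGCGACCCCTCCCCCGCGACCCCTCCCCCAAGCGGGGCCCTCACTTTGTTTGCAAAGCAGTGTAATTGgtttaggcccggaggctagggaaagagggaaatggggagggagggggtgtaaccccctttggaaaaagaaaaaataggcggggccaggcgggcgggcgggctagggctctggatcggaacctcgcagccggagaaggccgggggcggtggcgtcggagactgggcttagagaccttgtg
TRPM8: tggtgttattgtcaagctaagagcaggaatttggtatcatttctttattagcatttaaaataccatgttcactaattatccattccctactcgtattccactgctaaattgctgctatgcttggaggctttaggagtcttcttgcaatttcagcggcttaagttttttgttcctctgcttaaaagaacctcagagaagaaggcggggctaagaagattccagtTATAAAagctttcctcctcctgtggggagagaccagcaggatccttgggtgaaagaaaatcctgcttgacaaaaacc

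The FOXA1 window had a GC content of 69.3% and 34 CpG dinucleotides, and the TTC6 window 68.3% and 28. Over 35114 RefSeq windows the median was 58.7% and 14. SLC45A3 had 26 CpG dinucleotides, STEAP2 had 28 in 1 window and 2 in the other, and FKBP5 had 38 in 1 window and 3 in the other. ACP3 had 2, and the 6 windows of TRPM8 had 1 to 5. The 4 genes of this set with at least 84 pairs thus each have a window with at least 26 CpG dinucleotides. Of all windows 69.9% have fewer than 26. The windows of the 2 genes with under 5 pairs have at most 5. This is a description of 6 genes, and a link to the listed counts was not tested.

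The hexamer AGAACA or its complement TGTTCT, as found in androgen response elements, occurs in 2 of the 13 windows, 1 of FKBP5 and 1 of TRPM8, and in 14.8% of all windows. The full element, AGAACA followed by NNN and TGTTCT, which contains the hexamer, occurs in 0 of the 13 and in 0.00285% of all windows. The forkhead letters TGTTTAC or GTAAACA occur in 1 window, of STEAP2 (3.42% of all windows), and TATAAA or TTTATA in 1 window each of STEAP2 and TRPM8 (11.5%). CCAAT or ATTGG occurs in 5 windows of 3 genes (34.6%). Both strands were searched, and a match is a run of letters, not a measured binding site.

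Each of the 8 genes belongs to a family, and the other family members gave a range for the listed count. FOXA1 had 718 pairs whereas FOXA2 and FOXA3, the factors of endoderm and liver, were listed at 0. SLC45A3 had 100 pairs and the other SLC45 genes 0 to 2. STEAP2 had the highest count of the 5 STEAP genes, above STEAP4 (56) and STEAP1 (31), although STEAP1 had more pairs per kb, 20.1 against 12.0. In these families the prostate gene was the one of highest listed count.

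In the other families it was not. FKBP5, with 84 pairs, had the fifth count of 15 FKBP genes, behind FKBP1A (329), FKBP15 (238), FKBP4 (102) and FKBP9 (89). FOLH1, with 50 pairs, followed NAALAD2 (205) and NAALADL2 (150). TMPRSS2, with 15 pairs, had the fourth count of 17 type II transmembrane serine proteases, in which TMPRSS9 had 369 pairs and HPN, the luminal protease hepsin, had 2, beside 522 for HPN-AS1 on the opposite strand. TRPM8 had the seventh count of 8 TRPM channels, where TRPM2 led with 337, and ACP3 the lowest of 7 acid phosphatases, where ACP5 led with 325. Per kb of exon the rank of FKBP5 was 9, of TMPRSS2 6 and of ACP3 6. Those of FOLH1 (3) and TRPM8 (7) were the same as by count.

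**Figure D4:**
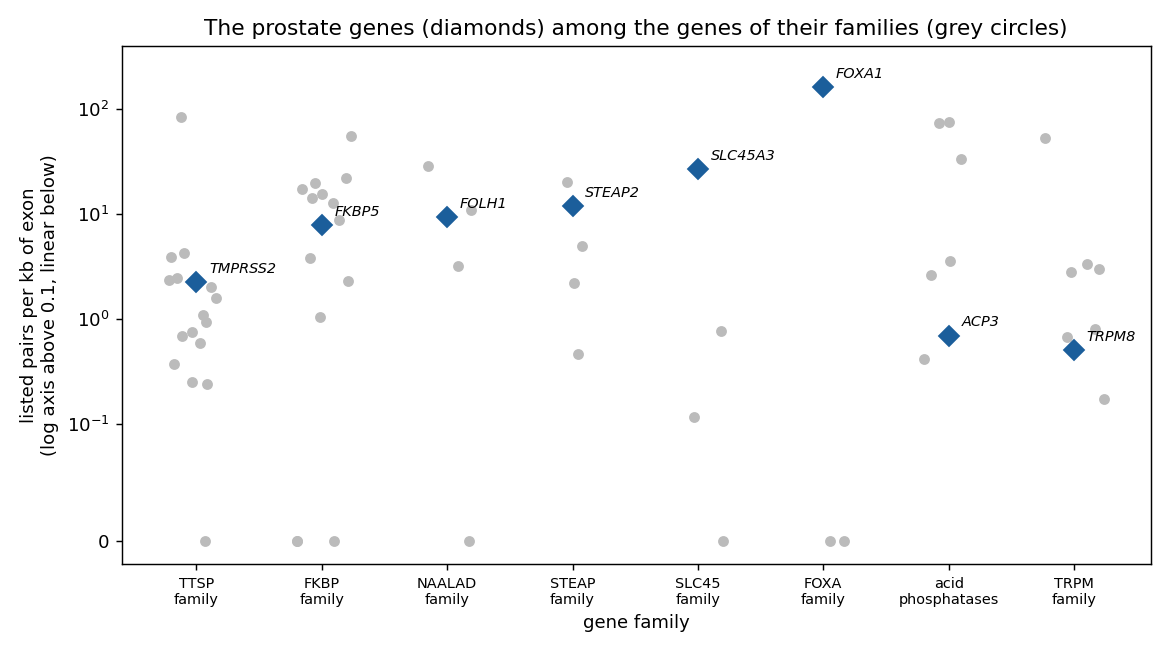
Listed pairs per kb of exon (logarithmic above 0.1 and linear below) of the 8 prostate genes (diamonds) and of the other genes of their families (grey circles, spread sideways for legibility). FOXA1 and SLC45A3 stand above all other genes of their families, at 162.7 and 26.7 pairs per kb, while ACP3 and TRPM8 stand at 0.700 and 0.505, in the lower part of theirs.

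The wider androgen response was read from a list of 100 genes induced by androgen, 99 of which are in the table and which includes FKBP5 and TMPRSS2. Of these 99 genes, 55 reached 10 pairs (55.6%, beside 44.2% of all protein-coding genes), with a median of 13 pairs and 9 genes listed at 0. Among the 54 without opposite exons, 23 reached it (42.6%, beside 33.7%), and among the 45 with opposite exons 32 did (71.1%, beside 65.3%). The listed gene was below its opposite gene in 31 of these 45 (68.9%, beside 56.6%). The median was 28 pairs against 204 for the opposite gene, beside 26 against 66 for all protein-coding genes with opposite exons.

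The 3 highest counts of the list were 7882 for HERC3, a ubiquitin ligase, 6947 for KRT8, a keratin of simple epithelia, and 4481 for FADS1, a fatty acid desaturase. KRT8 shares 525 exonic nt with its partner keratin KRT18 on the opposite strand, which had 595 pairs. FADS1 lies opposite FADS2, which had 204. The kallikreins KLK2 and KLK3, the latter encoding the prostate-specific antigen, had 89 and 18 pairs.

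The proteins that hold or assist steroid receptors were read next. Of 10 chaperones and co-chaperones 8 reached 10 pairs, beside 44.2% of all protein-coding genes, with counts from 1 to 109 and a median of 36. They were led by HSPA4 (109), FKBP4 (102) and FKBP5 (84), while HSP90AB1 had 1. FKBP4, like FKBP5 a partner of HSP90, lay opposite ENSG00000258092, which had 3706 pairs. Of 15 listed coregulators 10 reached 10 pairs (66.7%, beside 44.2%), 3 of 7 without opposite exons (beside 33.7%) and 7 of 8 with them (beside 65.3%). They were led by the corepressor NCOR1 (469), the methyltransferase CARM1 (188) and the Mediator subunit MED1 (177). Their opposite genes TTC19, YIPF2 and ENSG00000266469 had 692, 107 and 657.

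The identity of the cells could not be checked with listed counts in the usual way. Of 10 luminal markers, 9 had at least 1 pair (beside 73.7% of all protein-coding genes) and 4 reached 10 (beside 44.2%), with a sum of 7624 pairs of which KRT8 held 6947, and the defining genes EPCAM, KRT19 and AMACR had 6, 2 and 0. CDH1, the epithelial cadherin, had 9 pairs, and ENSG00000260798 opposite to it had 10923. Of the basal markers KRT15 had 24, KRT14 and TP63 had 1 and KRT5 had 0. Of 6 neuroendocrine markers 3 reached 10 pairs (50%, beside 44.2%), ENO2 (64), SYP (64) and CHGA (52), in a sum of 189. Of 6 stromal markers 3 reached it (50%, beside 44.2%), MYH11 (846), ACTA2 (31) and VIM (13), in a sum of 902. These 3 are among the 5 stromal markers with opposite exons, and 65.3% of protein-coding genes with such exons reached 10 pairs. Their opposite genes NDE1, ACTA2-AS1 and ENSG00000234961 had 27, 173 and 78 pairs. The 2 endothelial markers summed to 3 pairs, and the 4 leukocyte markers to 34, of which CD68 held 33 and PTPRC 1.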

How the data were processed

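Poly(A)+ RNA of LNCaP cells kept without androgen was sequenced in 2 biological replicates. The authors trimmed reads with Trimmomatic 0.30, mapped pairs to hg19 with TopHat 2.0.12 and Bowtie 2.2.3, counted them with htseq-count (HTSeq 0.6.1p1) and deposited raw counts per gene, both replicates in 1 column. The design assumed that replicate columns might exist. The 5 summary categories were kept out of all gene counts: 93.5% of the uniquely placed pairs were assigned to no feature.

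Identifiers were matched without version to GENCODE release 44 on GRCh37 (hg19) for 55538 genes. Exonic length is the union of annotated exons, and an opposite gene is any listed gene on the other strand whose exons (at least 1 nt) or body overlap. CPM used the total on genes (9495309 pairs). No test was made, since there is 1 condition. Genes were named by a rule: the 8 genes, opposite genes, family genes, and the 3 highest of each other list. KLK2, KLK3, CDH1, HPN, marker genes at low counts and the genes opposite list genes were named after their values were seen. The 8 genes and the lists, written from general knowledge, were chosen with earlier results of these data known. A gene of the rule is not reported here. Transcripts were aligned with BLAST 2.17.0. Overlap and interval code (Python 3.11.15, numpy 2.4.6, scipy 1.17.1) was tested on simulated data, and figures used matplotlib 3.10.9. Alternatives were the count minimum, the overlap that defines an opposite gene, the exonic length and the library size.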

Additional observations from a re-analysis of the deposited data

How the results depend on the processing

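The number of the 8 genes at the count minimum was 6 at a minimum of 5 (beside 53.8% of all protein-coding genes) and 5 at a minimum of 20 (beside 33.4%), and 2 genes stayed below an opposite gene with at least 100 shared exonic nt and with overlap of gene bodies. The median of the 8 genes rose from 8.64 to 11.8 pairs per kb with the longest transcript as the length. Of the androgen response genes without opposite exons 23 of 54 reached 10 pairs (42.6%), against 55 of all 99 (55.6%). The number could only fall or stay, since the 54 genes are part of the 99. The share was likewise lower among all protein-coding genes without opposite exons, 33.7% against 44.2%, and the cause was not tested. The 8 genes together had 113.6 CPM, 220.7 CPM without the 3 genes of highest count in the table, which hold 48.5% of the pairs, and 7.26 CPM when scaled to the uniquely placed pairs. Leaving out each replicate was not run, because both replicates share 1 column. No paired analysis was possible because there is a single group and a single column. Depth limits TRPM8 and ACP3, with 4 and 3 pairs.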

Other observations

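Beyond the gene bodies, the nearest protein-coding or lncRNA gene on the opposite strand was read on either side of each of the 8 genes, a choice made after the counts were seen. The same neighbours of all other genes were not counted, so the values are given singly. The highest count was that of MIPOL1, whose end lies 10.4 kb beyond that of FOXA1 and which had 4075 pairs (3951 to 4202), against 718 for FOXA1. Per kb of exon MIPOL1 had 142.4 pairs and FOXA1 162.7. ENSG00000234459, 27.9 kb beyond STEAP2, had 227 pairs and, with 785.5, the most per kb of these neighbours. MFSD4A, 54.9 kb beyond SLC45A3, had 192 pairs, ACAD11, 189.8 kb beyond ACP3, had 130, and MX2, 54.9 kb beyond TMPRSS2, had 36. Before the start of TRPM8, HJURP had 21 pairs, and the neighbours before the other starts had 0 to 4. The neighbours beyond FKBP5, FOLH1 and TRPM8 were listed at 0.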
